A study of Mus musculus with 4 samples.

Results

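Of 10 genes of the p53 pathway and of the brakes on the cell cycle, 9 were measured here: Cdkn1a, Mdm2, Ccng1, Gadd45a, Sesn2, Btg1, Btg2, Cdkn1b and Cdkn2a. They were chosen by name, as p53 target genes and antiproliferative genes, from the platform annotation of the arrays, and they are 9 of 19087 measured genes. Trp53, the tenth gene listed, was not analysed here. The 9 genes had 53 spots, between 1 and 12 each, and the spots of a gene were averaged on each array.

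The study compared LMEB3(mtBALB), the line labelled mutant and given the strain BALB/cJ, with LMEB3(mtB6), the wild type control given the strain C57BL/6J. Both are mouse cybrid fibroblast lines at passage 3, grown in medium with 4.5 g/L glucose and 10% fetal bovine serum, and a cybrid joins one recipient nucleus to the mitochondria of a donor. Total RNA of 1 mtBALB and 1 mtB6 culture was hybridised together on each of 4 two-colour arrays, and the series title speaks of independent clones. The mtBALB RNA carried Cy5 on replicates 2 and 4 and Cy3 on replicates 1 and 3. All values are log2 ratios of the lines as the authors deposited them. Neither the labels nor the values say which line is the numerator, so that a sign gives a side of the ratio and no line is called higher. A ratio measures unequal RNA in a pair of cultures, in which a smaller share of cells with the transcript and less transcript per cell cannot be told apart.

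The p53 protein is a transcription factor that is held low by Mdm2, the ubiquitin ligase that marks it for degradation, and that is released by DNA damage and other stress. Its targets halt division through Cdkn1a (p21), an inhibitor of cyclin-dependent kinases, slow growth through the sestrins and feed back through Mdm2. Cdkn1b (p27) and the p16INK4a product of Cdkn2a brake the cycle by routes that do not need p53. The p19ARF product of Cdkn2a acts on Mdm2. Btg1 and Btg2 are small antiproliferative proteins that bind the CCR4-NOT deadenylase, which shortens the poly(A) tails of messenger RNAs.

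Promoter sequences are shown for 4 genes, namely Cdkn1a and Ccng1, the 2 of the 10 listed genes whose windows held a full p53 site, and the pair Btg1 and Btg2, whose windows held none. Each is the 250 bases before an annotated transcript start, 5′ to 3′ on the strand of the gene, from RefSeq on GRCm38.p6. Capitals mark motifs found by search: the p53 consensus site of 2 adjoining half-sites with at most 2 mismatches and intact core C and G, the p53 half-site with no mismatch, the FOXO motif TGTTTAC and the cyclic AMP response element TGACGTCA, each on both strands.
Cdkn1a, chr17:29090729-29090978, plus strand: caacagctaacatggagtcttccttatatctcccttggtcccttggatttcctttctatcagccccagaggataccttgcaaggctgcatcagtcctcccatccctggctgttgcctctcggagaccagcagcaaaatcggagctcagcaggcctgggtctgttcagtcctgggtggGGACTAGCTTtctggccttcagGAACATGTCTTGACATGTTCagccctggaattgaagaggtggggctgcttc
Ccng1, chr11:40755287-40755536, minus strand: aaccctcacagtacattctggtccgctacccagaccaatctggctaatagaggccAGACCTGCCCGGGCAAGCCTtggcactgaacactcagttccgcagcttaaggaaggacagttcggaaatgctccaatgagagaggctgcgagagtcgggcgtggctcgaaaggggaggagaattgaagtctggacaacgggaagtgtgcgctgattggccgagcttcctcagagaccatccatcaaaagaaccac
Btg1, chr10:96616751-96617000, plus strand: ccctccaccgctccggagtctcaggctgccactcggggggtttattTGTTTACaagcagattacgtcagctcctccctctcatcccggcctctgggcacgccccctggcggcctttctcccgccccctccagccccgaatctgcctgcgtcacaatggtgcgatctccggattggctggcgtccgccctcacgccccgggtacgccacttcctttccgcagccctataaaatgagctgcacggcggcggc
Btg2, chr1:134079156-134079405, minus strand: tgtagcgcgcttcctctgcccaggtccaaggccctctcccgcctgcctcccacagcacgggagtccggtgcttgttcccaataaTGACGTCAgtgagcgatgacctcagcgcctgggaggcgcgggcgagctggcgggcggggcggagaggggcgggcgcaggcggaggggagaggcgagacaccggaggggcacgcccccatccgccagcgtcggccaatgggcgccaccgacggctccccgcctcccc

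RefSeq gave 12 such windows for the 10 listed genes. A full p53 site lay in the windows of 2 genes, Cdkn1a (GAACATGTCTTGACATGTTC, 51 to 32 bases before the start, 1 mismatch) and Ccng1 (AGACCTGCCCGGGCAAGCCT, 195 to 176 bases before the start, 1 mismatch), against 0.271% of 32851 windows in the table. Cdkn1a has a second annotated start, whose window held none of the motifs. A single half-site, found in 7.13% of windows, was also in those of Gadd45a, Mdm2 and Trp53. The FOXO motif, in 3.17% of windows, was in those of Btg1 and Mdm2, and the cyclic AMP element, in 1.55%, was in that of Btg2. A match is a description of the letters and no measure of binding, and the motifs were chosen with these sequences and the expression values known.

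**Figure D1:**
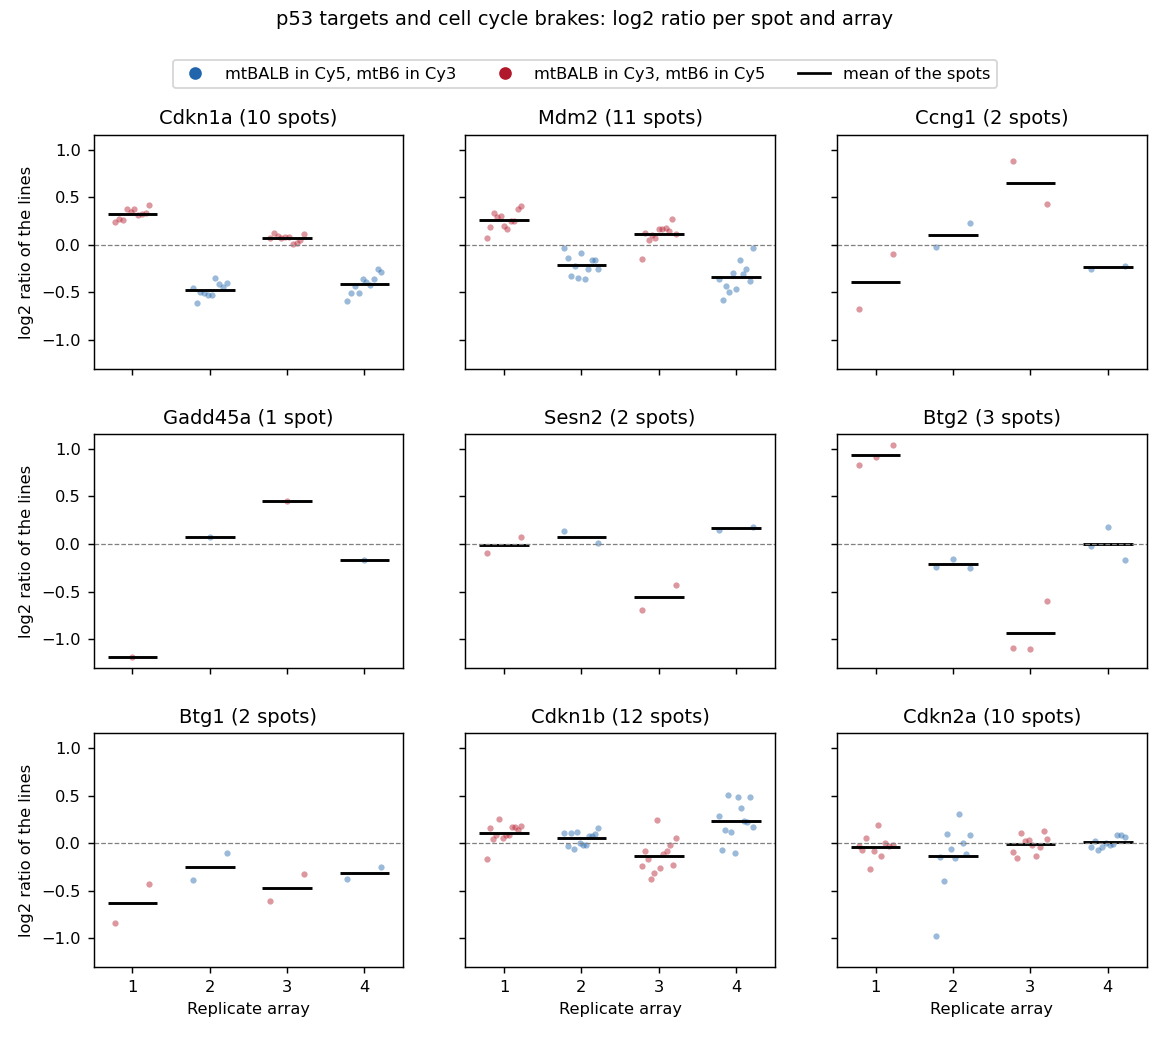
Log2 ratio of the lines (vertical axis) on each replicate array (horizontal axis) for the 9 measured genes. Points are single spots, coloured by dye orientation, and black bars are the means that the text gives; the Btg1 spots lie below 0 on all 4 arrays, and the Cdkn1a means lie above 0 on replicates 1 and 3 and below 0 on replicates 2 and 4.

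None of the 9 genes differed between the lines past the adjusted threshold. In limma's fit with a mean ratio and a dye effect, 0 of 19087 genes (0%) had an adjusted p under 0.05, and the adjusted p of each of the 9 was 0.9997. At an unadjusted p under 0.05 there was 1 of the 9, Btg1, against 694 genes or 3.64% of all. Of the 9, 7 had a mean below 0, against 50.5% of all genes, and 2 had a mean above 0, against 49.5%. With the ratios taken as not turned for the dye swaps, 4 of the 9 were below 0. With them taken as turned, their median was -0.05, against -0.0011 over all genes.

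The antiproliferative gene Btg1 was the one member with the same sign on every array. It had -0.63, -0.25, -0.47 and -0.32 on replicates 1 to 4 and averaged -0.42 ± 0.17 (SD, n = 4), with a 95% interval of -0.59 to -0.25. This SD still contains any difference between dye orientations, whereas the interval does not. All 4 arrays were on the negative side, a pattern found in 4.65% of genes, while 0 of the 9 genes were positive on all 4, a pattern of 4.37%. The mean corresponds to a 1.34-fold difference between the lines if the ratios are taken as turned. Its unadjusted p in limma was 0.00209, the 12th smallest of all genes, with an adjusted p of 0.9997. The exact sign-flip permutation test gave p = 0.125 (two-sided), the smallest that 4 arrays allow. Btg1 was known from earlier results when the genes were chosen, so its rank is a description.

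Both spots of Btg1 were negative on every array but differed in size. One had -0.84, -0.39, -0.61 and -0.38 on replicates 1 to 4 and averaged -0.55 ± 0.22 (SD, n = 4). The other had -0.43, -0.11, -0.33 and -0.25, a mean of -0.28 ± 0.14. The first was the further from 0 on each array. With any single replicate left out, the gene's fitted mean lay between -0.46 and -0.38, and it stayed at an unadjusted p of at most 0.0205 in limma.

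Btg2, the near relative of Btg1 and itself a p53 target and an early response gene, had no shared side. It had 0.93, -0.21, -0.93 and 0.00 on replicates 1 to 4 and averaged -0.05 ± 0.77 (SD, n = 4), with a 95% interval of -0.92 to 0.82. Its 3 spots were between 0.83 and 1.04 on replicate 1 and between -1.10 and -0.60 on replicate 3, so that they shared the side on both of these arrays. The range over arrays was 1.86, the widest of the 9 genes. The fitted mean was -0.52 without replicate 1 and 0.41 without replicate 3, so the side of the mean rests on which of these arrays is kept.

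Among the direct effectors of p53, Cdkn1a had ratios that changed sign with the dyes. It had 0.33, -0.47, 0.07 and -0.41 on replicates 1 to 4 and averaged -0.12 ± 0.39 (SD, n = 4), with a 95% interval of -0.31 to 0.07. It was above 0 on the arrays with mtBALB RNA in Cy3 and below 0 on those with mtBALB RNA in Cy5. The dye effect was 0.32 ± 0.07 (SE) with an unadjusted p of 0.00894 and an adjusted p of 0.546 in limma, where 8.97% of all genes had an unadjusted p under 0.05 for that term.

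The 10 spots of Cdkn1a gave nearly the same ratio on each array. They spanned 0.24 to 0.42 on replicate 1, -0.61 to -0.35 on replicate 2, 0.01 to 0.12 on replicate 3 and -0.59 to -0.25 on replicate 4. The spread between spots within an array (pooled SD 0.07) was thus smaller than the spread of the means between arrays (SD 0.39). The ratio of these SDs, 5.28, ranked 13th of 223 genes with at least 8 spots. Spots of 1 array share its RNA, so they speak for the array's measurement and not for the lines.

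Mdm2, the p53 target that in turn restrains p53, followed the same sign pattern as Cdkn1a. It had 0.26, -0.21, 0.11 and -0.34 on replicates 1 to 4 and averaged -0.05 ± 0.28 (SD, n = 4), with a 95% interval of -0.22 to 0.13. Its 11 spots spanned 0.08 to 0.41 on replicate 1, -0.36 to -0.03 on replicate 2, -0.15 to 0.28 on replicate 3 and -0.58 to -0.04 on replicate 4. The spots of replicate 3 thus lay on both sides of 0 and overlapped those of replicates 2 and 4, while those of replicate 1 overlapped neither. The dye effect was 0.23 ± 0.06 (SE), with an unadjusted p of 0.0204 and an adjusted p of 0.546 in limma. Cdkn1a and Mdm2 were the 2 of 9 genes that were positive on replicates 1 and 3 and negative on replicates 2 and 4, a pattern of 11% of all genes.

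The reading of these genes depends on whether the deposited ratios had been turned to 1 direction. The annotation gave no gene to 171 spots that were 0.6 or more from 0 on every array. Of these, 163 switched sides when the dyes were swapped and 0 stayed on 1 side. Signals tied to a dye would switch in this way if the ratios had been turned, and transcripts that differ between the lines would do so if they had not. The sources used here do not say what these spots measure, so that the tally does not settle the direction. Taking the ratios as turned is an assumption of the values given here. Under the other reading the line difference is the term called dye effect here: 0.32 for Cdkn1a, 0.23 for Mdm2 and -0.13 for Btg1, with unadjusted p-values of 0.00894, 0.0204 and 0.0955 in limma. No gene passed the adjusted threshold under that reading either, where 1713 genes had an unadjusted p under 0.05. Arrays of opposite orientation correlated between -0.24 and -0.17 over all spots, against -0.0018 for replicates 1 and 3 and 0.27 for replicates 2 and 4.

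**Figure D2:**
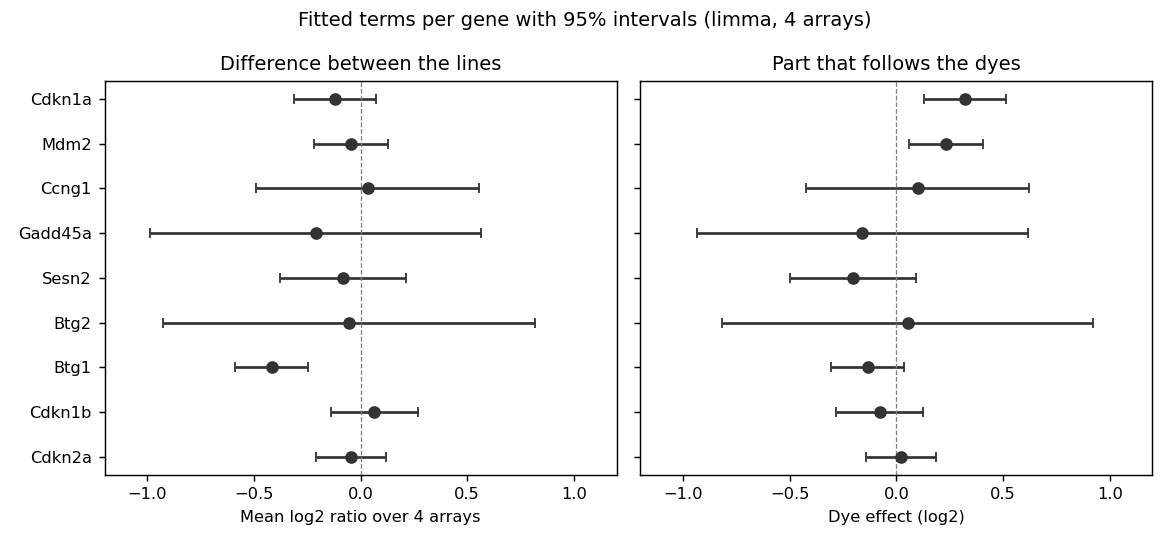
Mean log2 ratio (left) and dye effect (right) of each gene, with 95% intervals from limma's fit on 4 arrays. The left interval of Btg1, -0.59 to -0.25, is the one of the 9 that leaves out 0, and on the right those of Cdkn1a and Mdm2 lie above 0; none of these terms passed an adjusted p of 0.05.

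Ccng1, cyclin G1, is a p53 target that guides a phosphatase to Mdm2. It had -0.39, 0.10, 0.65 and -0.23 on replicates 1 to 4 and averaged 0.03 ± 0.46 (SD, n = 4), with a 95% interval of -0.49 to 0.56. Replicates 1 and 3, which share a dye orientation, lay at the 2 ends. Its 2 spots differed on replicate 1, at -0.68 and -0.10, and on replicate 3, at 0.88 and 0.43. Its fitted mean was 0.29 without replicate 1 and -0.23 without replicate 3.

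Gadd45a, a small stress protein that binds PCNA and mitotic kinase complexes, rested on a single spot. It had -1.19, 0.07, 0.45 and -0.17 on replicates 1 to 4 and averaged -0.21 ± 0.70 (SD, n = 4), with a 95% interval of -0.99 to 0.56. Replicate 1 alone was far below 0. The fitted mean was 0.20 without it, and it was -0.62 without replicate 3.

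Sesn2, a sestrin that restrains mTORC1 and answers to p53 and to ATF4, lay near 0 except on replicate 3. It had -0.01, 0.08, -0.56 and 0.16 on replicates 1 to 4 and averaged -0.08 ± 0.33 (SD, n = 4), with a 95% interval of -0.38 to 0.21. Both spots were below 0 on replicate 3, at -0.69 and -0.43. By sign alone it alternated with the dyes in the direction opposite to Cdkn1a, as 10.4% of genes did. With Cdkn1a and Mdm2, 3 of the 9 genes thus alternated in sign with the dyes, against 21.3% of all genes.

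The kinase inhibitor Cdkn1b had small ratios. It had 0.11, 0.05, -0.13 and 0.23 on replicates 1 to 4 and averaged 0.06 ± 0.15 (SD, n = 4), with a 95% interval of -0.14 to 0.27. Its 12 spots spread about as widely within an array (pooled SD 0.15) as its means did between arrays. With the ratios taken as turned, the further end of the 95% interval corresponds to a 1.20-fold difference between the lines.

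Cdkn2a had the smallest spread of means between arrays. It had -0.04, -0.14, -0.01 and 0.0069 on replicates 1 to 4 and averaged -0.05 ± 0.06 (SD, n = 4). On replicate 2, 1 of its spots lay at -0.98, and the SD between its spots was 0.35. On each array at least 9 of its 10 spots were tied, meaning that their ratio was identical to that of at least 2 other spots of the array. Tied spots made up 53.7% to 56.0% of an array, and 40 of the 53 spots of the 9 genes were tied on no array, with 0 of the 10 Cdkn2a spots among them. Spot brightness was not measured here, so that whether the cells express Cdkn2a cannot be read from these ratios.

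At an unadjusted p under 0.05, the number of these genes depended on the arrays kept, although none passed the adjusted threshold. It was 4 without replicate 1 (Btg1, Btg2, Ccng1 and Sesn2), and 3 without replicate 3 (Btg1, Btg2 and Gadd45a), against 1 on all 4 arrays. Without replicate 2 or replicate 4 it was 1. Leaving out an array leaves 1 residual degree of freedom per gene, and 1579 genes over the whole table had such a p without replicate 1 and 1579 without replicate 3.

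The relatives of the 9 genes also lacked a shared side. Of 16 family members measured, 8 had a mean above 0 and 8 below, with a median of 0.0060, and 0 had an unadjusted p under 0.05, against 3.64% of all genes. Without replicate 3, 4 of the 16 were below 0. None kept 1 sign on all arrays, a pattern of 9.02% of genes. Cdkn1c, Cdkn2b, Cdkn2d, Ccng2, Gadd45g, Btg3, Btg4 and Tob1 rested on 1 spot each.

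The Gadd45 genes spread most. Gadd45b, a stress gene that acts on p38 and JNK signalling, had 1.61, 1.11, -1.96 and -0.02 on replicates 1 to 4 and averaged 0.19 ± 1.58 (SD, n = 4). Gadd45g, the third of the family, had 0.01, 0.47, -1.61 and -0.15, a mean of -0.32 ± 0.90. Both were far below 0 on replicate 3, where Gadd45a was above 0.

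Within the BTG and TOB family, whose members share an antiproliferative domain, no relative had the pattern of Btg1. Tob1 had 0.27, -0.34, -0.58 and 0.35, a mean of -0.07 ± 0.46, and Tob2 had a mean of -0.10 ± 0.18 (SD, n = 4 each). Btg3 and Btg4 had means of -0.05 ± 0.14 and 0.04 ± 0.09, with every spot tied on at least 1 array.

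Ccng2, a cyclin G gene that FOXO factors induce, rested on 1 spot. It had -0.86, -0.25, 0.55 and -0.61 on replicates 1 to 4 and averaged -0.29 ± 0.61 (SD, n = 4). From lowest to highest, its arrays ran in the same order as those of Ccng1. Gadd45a, which is no cyclin, had that order too, and its share over all genes was not counted. The sestrins Sesn1 and Sesn3 had means of 0.09 ± 0.27 and 0.03 ± 0.15, and every Sesn3 spot was tied on at least 1 array. Mdm4, the partner of Mdm2 in restraining p53, had a mean of -0.07 ± 0.12.

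Of the other kinase inhibitors, Cdkn2c (p18INK4c) had 0.75, -0.12, -0.03 and 0.21, a mean of 0.20 ± 0.39 (SD, n = 4). Cdkn1c (p57) had a mean of -0.15 ± 0.41, Cdkn2b (p15INK4b) 0.02 ± 0.09 and Cdkn2d (p19INK4d) 0.01 ± 0.25. The p53 relatives Trp63 and Trp73 had means of 0.10 ± 0.35 and -0.00056 ± 0.15. Cdkn1c, Cdkn2b, Trp63 and Trp73 had every spot tied on at least 1 array.

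**Figure D3:**
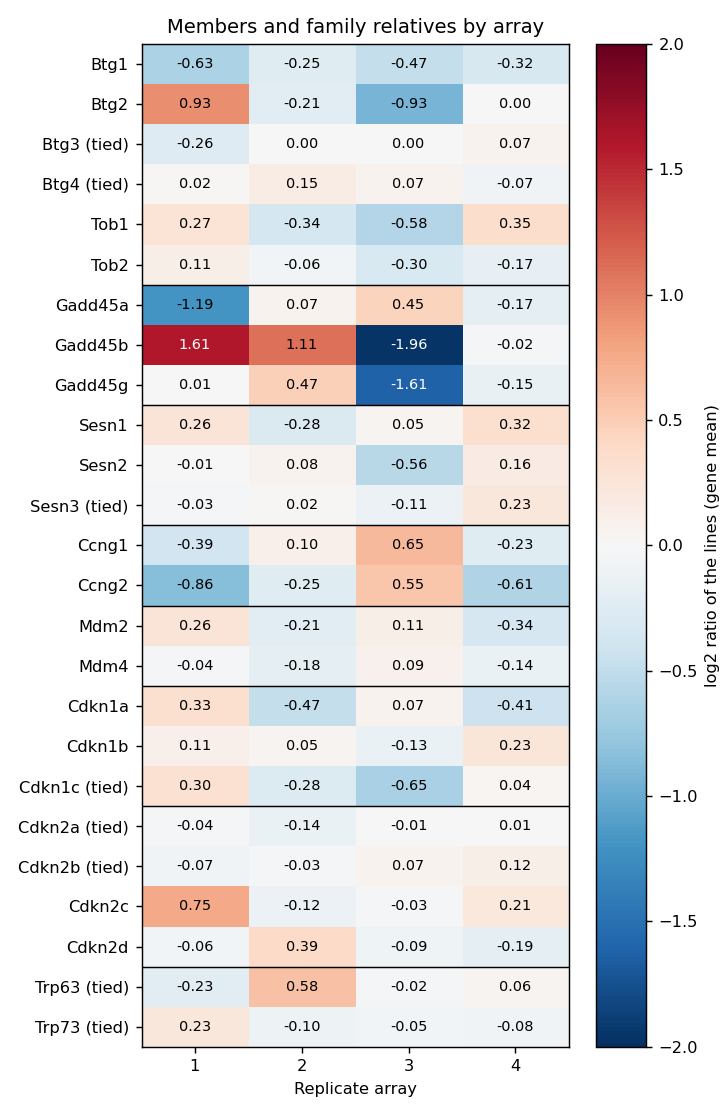
Gene means of the log2 ratio (printed in each cell and coloured) on the 4 replicate arrays for the 9 measured genes and 16 relatives, grouped by family. Genes marked as tied have no spot free of shared values on all arrays; Btg1 is negative in every column, and Gadd45b runs between 1.61 and -1.96.

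Further p53 target genes were spread to both sides. Of 19 targets with roles in arrest and repair, 8 had a mean above 0 and 11 below, with a median of -0.03. At an unadjusted p under 0.05 there was 1 on the positive side, against 1.59% of all genes, and 1 on the negative side, against 2.05%. Tigar, a phosphatase that lowers glycolysis, had 0.65, 0.31, 0.25 and 0.01 on replicates 1 to 4 and averaged 0.30 ± 0.26 (SD, n = 4). The kinase Plk2, on 1 spot, had -1.06, -1.39, -1.60 and 0.45, a mean of -0.90 ± 0.93.

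Of 18 targets with roles in cell death, 7 had a mean above 0 and 11 below, with a median of -0.02. The death receptor gene Eda2r had -0.29, -0.30, 0.02 and -0.34 on replicates 1 to 4 and averaged -0.23 ± 0.16 (SD, n = 4). Of its 2 spots, 1 was tied on no array, and the mean of that spot was -0.417. Bbc3 (PUMA), which antagonises the survival proteins of the BCL2 family, rested on 1 spot. It had -0.09, -1.03, -1.21 and -0.20, a mean of -0.63 ± 0.57. At an unadjusted p under 0.05 there was 1 of the 18, Eda2r, on the negative side, against 2.05% of all genes.

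Of 17 genes that regulate p53 or act with it, 6 had a mean above 0 and 11 below, with a median of -0.06. Rpl11, a ribosomal protein that can bind Mdm2, had 0.10, -0.38, -0.37 and -0.54 on replicates 1 to 4 and averaged -0.30 ± 0.28 (SD, n = 4). The acetyltransferase Crebbp had a mean of -0.18 ± 0.13 and was negative on each array. Of its 3 spots, 1 was tied on no array, and the mean of that spot was -0.322. Rpl11 and Crebbp were the 2 of the 17 at an unadjusted p under 0.05, both on the negative side, against 2.05% of all genes. With the median of the spots in place of their mean, Crebbp had -0.105 and an unadjusted p of 0.154 in limma.

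Genes of the kinase and cyclin list lay mostly on the positive side. The list held kinases, cyclins and pocket proteins, and also Cdc25a, Cks1b, E2f1, Pcna and Skp2. Of 18 genes, 15 had a mean above 0, against 49.5% of all genes, and 3 below, with a median of 0.12, and the list medians were 0.42, -0.01, 0.15 and 0.10 on replicates 1 to 4. Replicate 1 was thus the furthest from 0, and without replicate 3, 5 of the 18 were below 0. The S phase cyclins Ccne2 and Ccna2 had means of 0.31 ± 0.23 and 0.29 ± 0.28 (SD, n = 4), and they were the 2 of the 18 at an unadjusted p under 0.05, both on the positive side, against 1.59% of all genes. Ccne2 was positive on each array, with 0.53, 0.10, 0.49 and 0.11, and Ccna2, on 1 spot, had 0.62, 0.17, 0.39 and -0.04. Their dye effects were 0.20 and 0.22, with unadjusted p-values of 0.0202 and 0.0399 in limma. For that term, 8.97% of all genes had an unadjusted p under 0.05. That cell cycle genes lean to this side was known when the list was made.

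A list of 14 genes held subunits of CCR4-NOT, the deadenylase that Btg1 and Btg2 bind. It also held Pan2 and Pan3 of another deadenylase, Pabpc1, and the arginine methyltransferase Prmt1. Of the 14, 4 had a mean above 0 and 10 below, with a median of -0.03, against 50.5% of all genes below 0. Cnot9, a subunit of CCR4-NOT on 1 spot, was positive on each array, with 0.37, 0.05, 0.60 and 0.16. Its mean was 0.29 ± 0.24 (SD, n = 4), and its dye effect was 0.19 with an unadjusted p of 0.0498 in limma. Pabpc1, the cytoplasmic poly(A) binding protein, was negative on each array and had a mean of -0.22 ± 0.12. Of its 2 spots, 1 was tied on no array, and the mean of that spot was -0.405. At an unadjusted p under 0.05 there was Cnot9 above 0, against 1.59% of all genes, and Pabpc1 below 0, against 2.05%. Without replicate 1, 5 of the 14 were below 0.

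The FOXO axis induces several cell cycle brakes, and its list median was -0.22. Of 9 genes of the axis, 1 had a mean above 0 and 8 below, against 50.5% of all genes below 0. With the ratios taken as not turned, 5 of the 9 were below 0. This list, too, was made with earlier results known. Pik3ip1, an inhibitor of PI3 kinase, was negative on each array, with -0.41, -0.35, -0.04 and -0.48 and a mean of -0.32 ± 0.19 (SD, n = 4). Of its 2 spots, 1 was tied on no array, and the mean of that spot was -0.535. The transcription factor Klf4, on 1 spot, had -0.88, -1.04, -1.29 and 0.33, a mean of -0.72 ± 0.72. These were the 2 of the 9 at an unadjusted p under 0.05, both on the negative side, against 2.05% of all genes. None of the genes of these lists passed the adjusted threshold in limma.

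**Figure D4:**
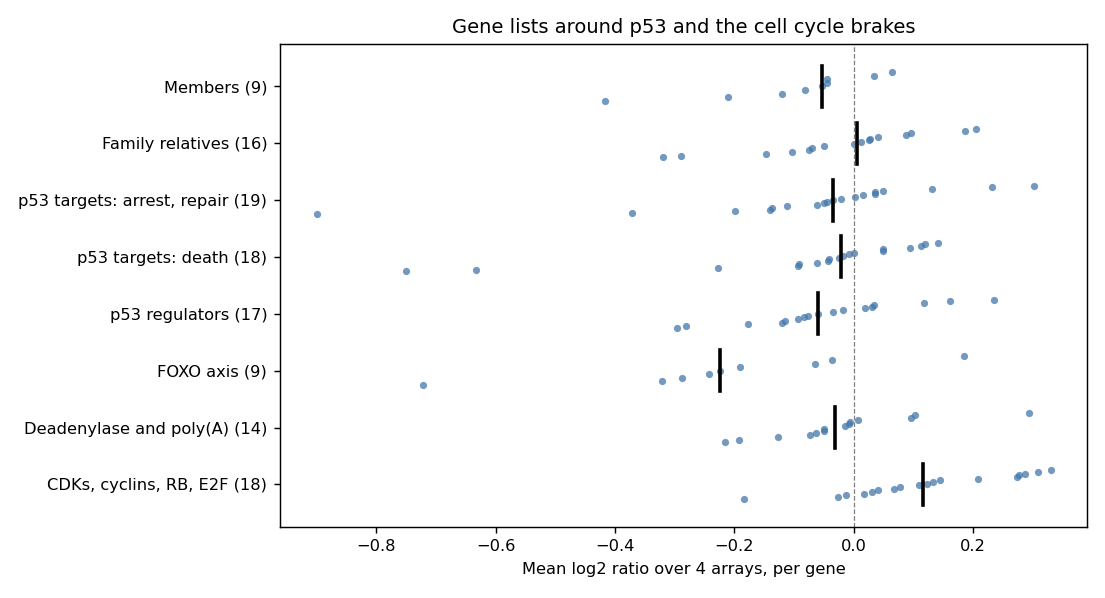
Mean log2 ratio over 4 arrays (horizontal axis) of each gene of 8 lists, with the number measured in brackets and the list median as a black bar. Medians run between -0.22 for the FOXO axis and 0.12 for the list of kinases, cyclins, pocket proteins and further cell cycle genes. Plk2 at -0.90 is the point furthest from 0.

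The labelled cell type can be checked only by which markers had a spot tied on no array, since levels were not measured. That held for 9 of 14 fibroblast markers, 3 of 9 leukocyte markers, 0 of 8 epithelial and 0 of 8 endothelial markers. Over all genes it held for 9774 of 19087, so these counts do not settle the cell type. Means were above 0 for 7 of the 14 fibroblast markers, 2 of the 9 leukocyte markers, 3 of the 8 epithelial markers and 5 of the 8 endothelial markers, with list medians of -0.0058, -0.07, -0.0090 and 0.01 in that order. Among the fibroblast markers without such a spot were Vim, Thy1 and Dcn. Col1a1 had a mean of 1.11 ± 1.05 and Pdgfrb -0.47 ± 0.27, the leukocyte genes Lyz2 and Tyrobp -0.32 ± 0.19 and -0.11 ± 0.07 (SD, n = 4 each). Pdgfrb and Tyrobp rested on 1 spot each. The epithelial genes Krt8 and Cdh1 had -0.17 ± 0.28 and -0.08 ± 0.11, and the endothelial genes Vwf and Kdr -0.21 ± 0.24 and -0.06 ± 0.14. The part of these markers in the ratios of the 9 genes was not tested.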

How the data were processed

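The values are the log2 ratios that the authors deposited, 1 per spot and array, for 4 arrays and 45220 spots. The submitters' processing notes name limma; the background correction, normalization, filters and base of the logarithm are not given in the sources used, and base 2 was taken because limma works on it. Array medians lay between -0.0033 and 0.0051. Signal intensities were not used, and precision was read from the spread over the 4 arrays. Of the spots, 33653 carried 1 gene in the platform annotation, 56 several and 11511 none; symbols were updated by gene ID through a RefSeq table of GRCm38.p6 (18966 genes matched), and the spots of a gene were averaged.

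Differences between the lines were fitted with limma 3.58.1 (R 4.3.3; lmFit, eBayes) with a mean ratio and a dye effect, leaving 2 residual degrees of freedom, and p-values were adjusted by Benjamini-Hochberg over 19087 genes with a threshold of 0.05. In data simulated for that comparison with 200 of 19087 genes changed, the fit recovered 0% of genes with a log2 difference of 0.5, 77.5% at 1 and 97.5% at 2. The 9 genes, all of their relatives, and the 2 genes of smallest p of each further list are named. The members, lists and rules were chosen with earlier results of these data known. Nothing in the labels says more of the cultures than that they are biological replicates, so p-values measure the spread between these pairs. Motif searches used Python 3.11.15. Alternatives covered the dye term, turning, spot averaging, tied spots, scaling, centring, array weights, robust fitting, symbols and each replicate left out.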

Additional observations from a re-analysis of the deposited data

Results flagged for a closer look

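Of 57 sets of 4 array values (45 named genes and 12 list medians), 3 had 1 array apart from the other 3 by Dixon's criterion, and chance marks about 1 in 20. Trp73 had 0.229 on replicate 1, Eda2r had 0.0167 on replicate 3 and Lyz2 had -0.613 on replicate 2. None of the 9 genes of the group was among them.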

How the results depend on the processing

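Under every alternative run, 0 of the 9 genes and 0 genes of the whole table passed an adjusted p of 0.05 in limma. Leaving out the dye term, taking the median of the spots, scaling, quantile normalization, array weights, robust fitting and the platform's own symbols kept the side of all 45 named genes. With never tied spots only, 33 of the 45 named genes had a value, and these kept their side. Among the 9 genes of the group, Cdkn2a was the one without a value. The count of genes at an unadjusted p under 0.05 was then 270 in place of 694, with fewer genes tested. Centring on never tied spots turned 1 gene, Trp73 (0.000401).

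Taking the ratios as not turned exchanges the line difference and the dye effect by construction. It gave 1713 genes and 2 of the 9 genes at such a p, left 4 of the 9 below 0, and turned 21 named genes: Cdkn1a (0.321), Cdkn1b (-0.0787), Cdkn2a (0.0196), Mdm2 (0.232), Btg2 (0.0526), Trp63 (-0.223), Trp73 (0.0883), Cdkn2b (-0.0225), Cdkn2d (-0.086), Mdm4 (0.0916), Ccng2 (0.136), Gadd45b (-0.36), Tob2 (0.0103), Sesn3 (-0.0974), Eda2r (0.0921), Rpl11 (0.164), Pabpc1 (0.0463), Pik3ip1 (0.0942), Lyz2 (0.0997), Vwf (0.0605) and Kdr (0.115). It left 6 of the 19 arrest and repair targets, 5 of the 14 genes of the deadenylase list and 5 of the 9 FOXO axis genes below 0.

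Leaving out single replicates gave 426 to 1579 genes and 1 to 4 of the 9 genes at an unadjusted p under 0.05. The fitted means then crossed 0 for Ccng1 (-0.226 to 0.294), Gadd45a (-0.622 to 0.201), Btg2 (-0.52 to 0.412), Sesn2 (-0.22 to 0.0553), Trp63 (-0.0355 to 0.228), Trp73 (-0.0712 to 0.0701), Cdkn1c (-0.386 to 0.0924), Cdkn2b (-0.0128 to 0.0619), Cdkn2d (-0.131 to 0.156), Ccng2 (-0.641 to 0.0605), Gadd45b (-0.705 to 1.08), Gadd45g (-0.726 to 0.0853), Btg3 (-0.114 to 0.0147), Btg4 (-0.0124 to 0.0932), Tob1 (-0.289 to 0.139), Tob2 (-0.208 to 6.88e-05), Sesn1 (-0.0642 to 0.239) and Sesn3 (-0.0276 to 0.0806). For these the cause was not tested.

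No paired analysis was possible beyond the fit itself, because the ratio of an array is already the difference within a pair, and the table has no value of either line alone to fit without pairing.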

Other observations

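Over 223 genes with at least 8 spots, the SD of the gene means between arrays was 1.07 times the pooled SD between spots within an array at the median, and 2.92 times over the 51 of them whose spots were all tied on no array. Cdkn1a ranked 12th of these 51. Mdm2, with 1 spot tied on 1 array, had a ratio of 2.33. Cdkn1b, with 1 spot tied on all 4 arrays, had 1.04, and Cdkn2a had 0.33. The annotation used here gives no probe sequences, so that spots of a gene with the same probe could not be told from those with different ones.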
